A study of Mus musculus with 27 samples.

Results

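Sall1, Sall4 and Utf1 are genes of the pluripotency programme that were proposed as targets of UTX, the demethylase that removes methyl groups from lysine 27 of histone H3. They were followed through 3 mm9 windows: chr8:91546000-91573000 for Sall1, chr2:168570000-168598000 for Sall4 and chr7:147124000-147136000 for Utf1. Every deposited peak that overlapped a window by at least 1 bp was taken. This gave 79 of the 234651 peaks in 19 lists, with 33 at Sall1, 21 at Sall4 and 25 at Utf1. Of these, 48 were H3K4me3 peaks, 27 were H3K27me3 peaks and 4 were UTX peaks.

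The peaks came from chromatin immunoprecipitation and sequencing of mouse cells in 7 states. Fibroblasts (MEF) of the V19-OSKM strain carry the reprogramming factors Oct4, Sox2, Klf4 and c-Myc under doxycycline (dox) control, and they were wild type (WT, Utx+/Y) or knockout (Utx-KO, Utx-/Y), each without dox and with it. Embryonic stem cells (ESC) of the V6.5 strain were WT or Utx-KO and received no dox, and aberrant iPS cells were 2 improperly reprogrammed clones of Utx-KO V19-OSKM fibroblasts, profiled without dox. Per the labels' growth protocol, both the stem cells and the fibroblasts were kept in medium with LIF and kinase inhibitors (2i), so the WT and Utx-KO groups shared it. The length of the dox treatment is not given in the sources used here. H3K4me3 and H3K27me3 were mapped in every state and UTX in WT MEF, WT MEF with dox and WT ESC. Each state had 1 library per mark, apart from the 2 iPS clones, so no difference between states has a replicate check and none was tested. The UTX antibody had no Utx-KO list here as a control, and the genotypes were taken from the labels.

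H3K4me3 is placed around the start sites of active and poised genes, and H3K27me3 is laid down by Polycomb repressive complex 2 over genes held silent. UTX (also called Kdm6a) removes H3K27me3 and travels with enzymes that write H3K4 methylation, so both marks bear on a gene that is switched on. Sall1 and Sall4 encode zinc finger transcription factors of the Spalt family. Sall4 is part of the core network of ES cells, and Sall1 is best known for its part in kidney development. Utf1 encodes a chromatin-associated factor whose transcripts are characteristic of undifferentiated ES cells and which is a direct target of Oct4 and Sox2.

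RefSeq promoters, from the GRCm38.p6 build, were in the table for Utf1 (1 start) and Sall1 (3 starts). The 250 bases before the Utf1 start and before the outermost Sall1 start are shown because H3K4me3 and H3K27me3 alternated at both genes, and both marks are known to favour CpG-rich promoters. Capitals mark CpG dinucleotides. The Utf1 sequence is chr7:139943606-139943855 on the plus strand and the Sall1 sequence chr8:89044163-89044412 on the minus strand, both GRCm38.p6. These positions are of another build than the peaks and cannot be laid on them.
Utf1: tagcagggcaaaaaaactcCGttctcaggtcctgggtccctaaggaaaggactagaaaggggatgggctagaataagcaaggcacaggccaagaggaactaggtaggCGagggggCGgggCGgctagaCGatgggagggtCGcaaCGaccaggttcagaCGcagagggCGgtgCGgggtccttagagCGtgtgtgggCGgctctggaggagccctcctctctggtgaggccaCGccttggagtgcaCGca
Sall1: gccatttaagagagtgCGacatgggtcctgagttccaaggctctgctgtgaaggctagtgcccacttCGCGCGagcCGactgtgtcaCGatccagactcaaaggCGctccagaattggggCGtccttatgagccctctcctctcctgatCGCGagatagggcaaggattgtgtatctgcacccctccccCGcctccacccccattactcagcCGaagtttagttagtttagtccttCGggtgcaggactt

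Both were richer in CpG than most promoters. The Utf1 sequence held 14 CpG and the Sall1 sequence 13, against a median of 6 over 32851 promoters, and 70.6% and 68.5% of promoters held fewer. The next 2 Sall1 starts were richer still, with 25 and 30 CpG. The GC box GGGCGG, searched on both strands with overlaps allowed, occurred 4 times before the Utf1 start and, at Sall1, 0 times before the outermost start, 4 times before the next and 1 time before the last, and 32.7% of promoters held it at least once. The octamer ATGCAAAT, a form of the Oct4 site, was in neither sequence and in 1.60% of all promoters. In the same way neither held TATAAA (12.4% of promoters), CACGTG (6.02%) or ACAAAG (16.5%).

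In each window the overlapping H3K4me3 peaks of all 8 lists were merged, and the longest merged region is called the main region here. It was chr8:91563208-91571838 (8631 bp) for Sall1, chr2:168584840-168593910 (9071 bp) for Sall4 and chr7:147129161-147134276 (5116 bp) for Utf1. Of the 79 peaks, 48 overlapped a main region. No mm9 gene annotation was at hand, so peaks were not assigned to start sites, exons or introns. In the GRCm38 gene order the long noncoding RNA Gm3134 overlaps Sall1 and Gm14261 overlaps Sall4. Peaks carry no strand, so marks of these overlapping genes and of the members cannot be told apart.

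Both untreated fibroblast genotypes carried H3K27me3 and no H3K4me3 over all 3 main regions. In WT MEF with dox this was turned round, with H3K4me3 over each region and no H3K27me3 peak. In Utx-KO MEF with dox H3K27me3 lay over all 3 regions, in longer peaks than before dox, and H3K4me3 was found at Sall4 only, as a weak peak. Longer H3K27me3 peaks were a trait of that whole list, with a median width of 1027 bp against 651 bp in untreated Utx-KO MEF. WT ESC, Utx-KO ESC and both aberrant iPS clones had H3K4me3 at all 3 regions and no H3K27me3 peak.

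**Figure D1:**
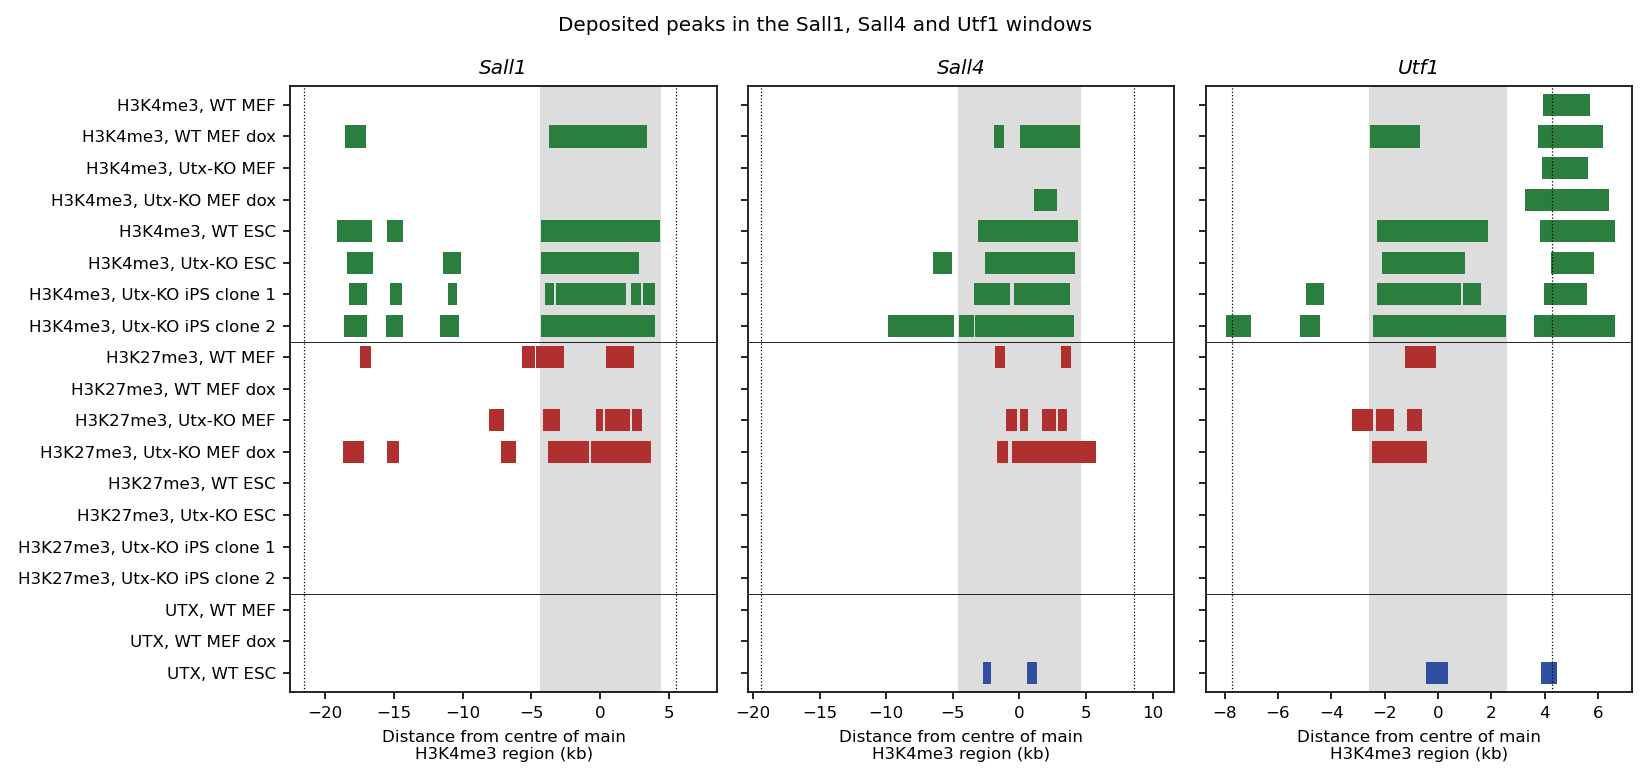
Deposited peaks in the windows of the 3 genes, with the distance from the centre of the main H3K4me3 region in kb on the horizontal axis and 1 row per list. Bars are peaks at their true widths (green H3K4me3, red H3K27me3, blue UTX), grey marks the main region and dotted lines the window edges; in dox-treated fibroblasts the green bars of WT cells and the red bars of Utx-KO cells overlap over most of their length inside the main regions, while some bars outside them have no counterpart.

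At Sall1, H3K4me3 covered 0 kb of the main region in WT MEF, 0 kb in Utx-KO MEF and 0 kb in Utx-KO MEF with dox. It covered 7.14 kb in WT MEF with dox. In the ES cells and aberrant iPS clones it covered 8.62 kb (WT ESC), 7.14 kb (Utx-KO ESC), 7.42 kb (iPS clone 1) and 8.26 kb (iPS clone 2). The WT peak with dox was therefore near the size seen in ES cells, and 82.8% of the WT ESC peak lay under it. Its score, which has the form of minus 10 times the base 10 logarithm of a p-value, was 3100, the level at which scores saturate. It was wider than 98.6% of the peaks in its list. The nearest H3K4me3 peak to the region in Utx-KO MEF with dox was 339.5 kb away.

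Sall1 H3K27me3 covered 3.74 kb of the main region in WT MEF, 4.31 kb in Utx-KO MEF and 7.39 kb in Utx-KO MEF with dox. In the other lists it covered 0 kb. Without dox it was broken into separate peaks, 2 in WT MEF (scores 576 and 428) and 4 in Utx-KO MEF (scores from 168 to 677). With dox, Utx-KO MEF had 2 peaks of 3.00 and 4.39 kb (scores 319 and 518) that filled 97.9% of the stretch they spanned. These H3K27me3 peaks covered 97.8% of the H3K4me3 found in WT MEF with dox, and their outer edges, 91563696 and 91571244, lay close to the H3K4me3 edges at 91563816 and 91570956. Of all 19689 H3K4me3 peaks of WT MEF with dox, 10.7% met H3K27me3 of Utx-KO MEF with dox. The length covered in those peaks was not computed, so this coverage has no background value here or at the other members. The strongest untreated peaks ranked high in their lists, above 98.4% of scores in WT MEF and 99.3% in Utx-KO MEF. The 2 Utx-KO peaks with dox ranked somewhat lower in theirs, above 89.6% and 95.6% of scores. By width, the widest exceeded 96.4% of its list with dox and 98.7% without it in Utx-KO MEF.

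At Sall4, H3K4me3 covered 0 kb of the main region in WT MEF and in Utx-KO MEF, and 5.26 kb in WT MEF with dox. Utx-KO MEF with dox had 1 peak of 1.76 kb. The WT peak of 4.51 kb scored 2564, above 82.9% of its list. The Utx-KO peak scored 61.8, above 2.67% of its list, and so stood near the bottom of it. The ES cells and aberrant iPS clones had 7.55 kb (WT ESC), 6.69 kb (Utx-KO ESC), 6.88 kb (iPS clone 1) and 8.55 kb (iPS clone 2). The widest peak in each of these 4 lists had a score of 3100 and exceeded the width of 99.0% to 99.5% of its list.

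Sall4 H3K27me3 covered 1.55 kb of the main region in WT MEF, 3.07 kb in Utx-KO MEF and 5.91 kb in Utx-KO MEF with dox, and no other list had it. The untreated peaks were of ordinary strength for their lists, with the highest scores at 183 in WT MEF (above 68.1%) and 185 in Utx-KO MEF (above 71.7%). With dox the main Utx-KO peak was 6.26 kb wide and scored 669, above 97.6% of its list and wider than 98.9%. It ran past the main region to 168595098. The weak Utx-KO H3K4me3 peak lay wholly inside it, so Sall4 was the one member with both marks at one place in one state; 41.7% of all H3K27me3 peaks of Utx-KO MEF with dox met H3K4me3 of the same cells. The H3K27me3 of Utx-KO MEF with dox covered 94.9% of the H3K4me3 length of WT MEF with dox.

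At Utf1, H3K4me3 covered 0 kb of the main region in WT MEF, in Utx-KO MEF and in Utx-KO MEF with dox, and 1.90 kb in WT MEF with dox. The last peak was modest, with a score of 304 (above 32.1% of its list) and a width exceeding 33.7% of the list. The mark covered 4.17 kb in WT ESC (score 2718), 3.12 kb in Utx-KO ESC (1591), 3.85 kb in iPS clone 1 (3100) and 5.00 kb in iPS clone 2 (3100). WT MEF with dox thus had 39.5% of the WT ESC length, against 82.8% at Sall1 and 68.1% at Sall4. What was present lay at the lower end of the ESC peak: the dox peak ended 2526 bp short of its upper edge.

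Utf1 H3K27me3 covered 1.15 kb of the main region in WT MEF (score 132), 1.36 kb in Utx-KO MEF (highest score 259) and 2.05 kb in Utx-KO MEF with dox (score 343). The other lists had none. As at the Spalt genes, the Utx-KO peak with dox, chr7:147129241-147131289, lay where WT cells with dox had H3K4me3, chr7:147129161-147131059, and covered 95.8% of it. It was a single peak, above 90.8% of the scores in its list, in place of 3 shorter ones in untreated Utx-KO MEF. Over the whole window the covered length was nearly equal, at 2028 bp without dox and 2049 bp with it, since one untreated peak lay mostly below the main region.

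**Figure D2:**
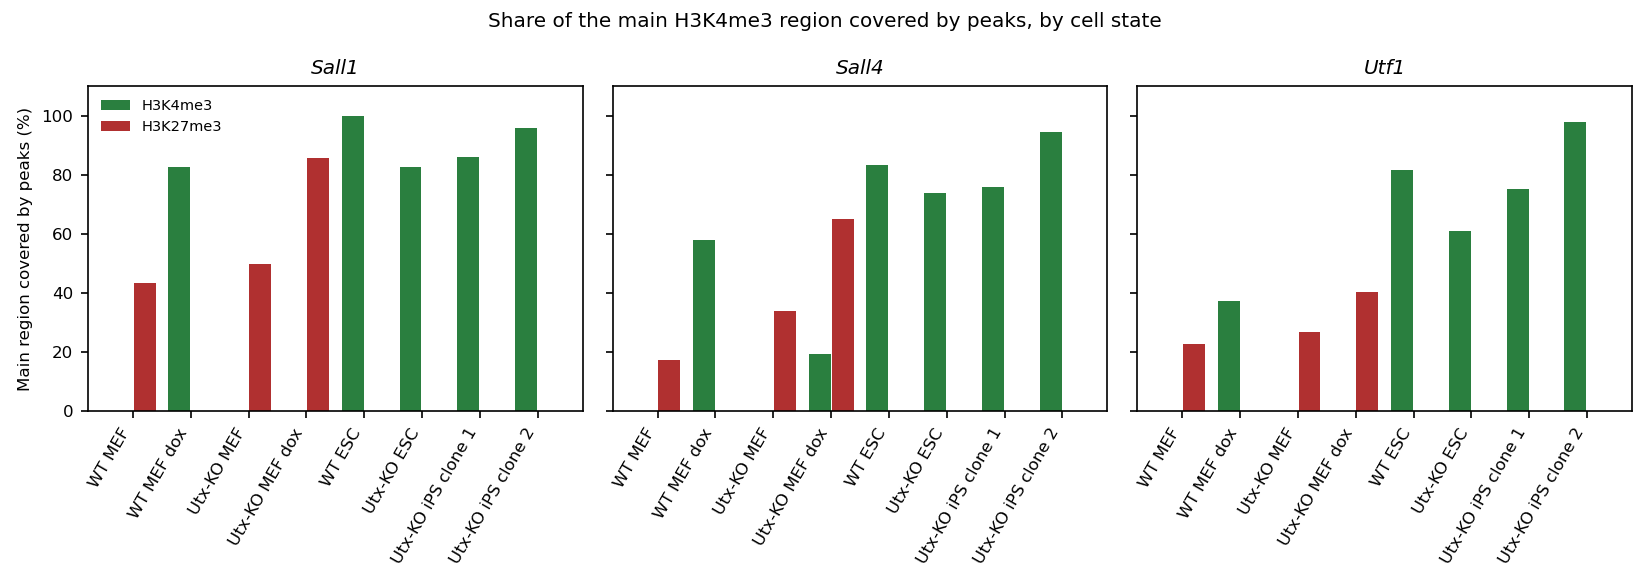
Share of each main region, in percent, covered by H3K4me3 (green) and H3K27me3 (red) peaks in the 8 libraries per mark; each bar is 1 library and a missing bar is 0. At Sall1 the H3K4me3 share was 82.7% in WT MEF with dox and 0 in Utx-KO MEF with dox, where H3K27me3 covered 85.6%.

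The gain of H3K4me3 with dox is common genome-wide and is not by itself a result about these genes. Of 20503 H3K4me3 regions in WT MEF with or without dox, 34.1% were found only with dox, and for Utx-KO MEF this share was 18.3%. All 3 main regions gained the mark in WT cells and 1, that of Sall4, in Utx-KO cells. Regions found in WT MEF with dox and not in Utx-KO MEF with dox made up 20.8% of 20309, and the main regions of Sall1 and Utf1 were among them (2 of 3). The H3K4me3 list of Utx-KO MEF with dox was the shortest of the 8, with 16157 peaks against 19689 in WT MEF with dox. Of these peaks, 90.3% and 85.8% scored 100 or more. For H3K27me3, 83.0% of 5476 regions were in WT MEF only, against the list with dox, and 81.6% of 4979 were in Utx-KO MEF with dox only, against WT MEF with dox. The 3 members followed both majorities, so their lack of H3K27me3 in WT MEF with dox is the common outcome in that list. H3K27me3 shared by Utx-KO MEF with and without dox was less usual, at 19.6% of regions, and that shared by both untreated genotypes made up 17.0%. All 3 members had both.

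The H3K27me3 list of WT MEF with dox was also short, with 938 peaks of which 2.35% scored 100 or more, against 4335 peaks and 40.6% in Utx-KO MEF with dox. Its nearest peaks to the Sall1, Sall4 and Utf1 regions were 146.3, 706.8 and 97.3 kb away. Of all H3K27me3 peaks of Utx-KO MEF with dox, 6.27% met a peak of WT MEF with dox. Of the 495 that scored 300 or more, a level chosen after the members' values were seen, 20.6% did, and none of the 4 member peaks at that level did. Read depth is unknown here, so a lower amount of the mark and a less sensitive list cannot be told apart.

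The H3K4me3 of other states also met most WT ESC H3K4me3 peaks. Without dox, 60.4% of the 19468 peaks met H3K4me3 of WT fibroblasts and 61.6% that of Utx-KO fibroblasts, and with dox these shares were 76.2% and 71.5%. The members were thus in the smaller class with no H3K4me3 in untreated fibroblasts. Of the 7701 WT ESC peaks that WT MEF lacked, 40.4% met H3K4me3 of WT MEF with dox and 28.9% that of Utx-KO MEF with dox.

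H3K27me3 of the fibroblasts met far fewer WT ESC H3K4me3 peaks than their H3K4me3 did. Of the WT ESC H3K4me3 peaks, 4.95% met H3K27me3 of WT MEF, 4.88% that of Utx-KO MEF and 8.74% that of Utx-KO MEF with dox. It was met in both untreated lists by 2.77% of peaks and in all of these lists by 2.52%, and all 3 members were of the last class. In WT MEF with dox the share was 0.801%. The share with H3K27me3 in Utx-KO MEF with dox was higher, 34.4%, among the 3110 WT ESC H3K4me3 peaks that WT MEF lacked and had with dox. Of these gained peaks, 34.4% also had no H3K4me3 in Utx-KO MEF with dox, as Sall1 and Utf1 did. H3K27me3 was no rarer where Utx-KO MEF with dox also had H3K4me3 (37.3% of 2041, the class of Sall4) than where it had none (28.9% of 1069, the class of Sall1 and Utf1).

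**Figure D3:**
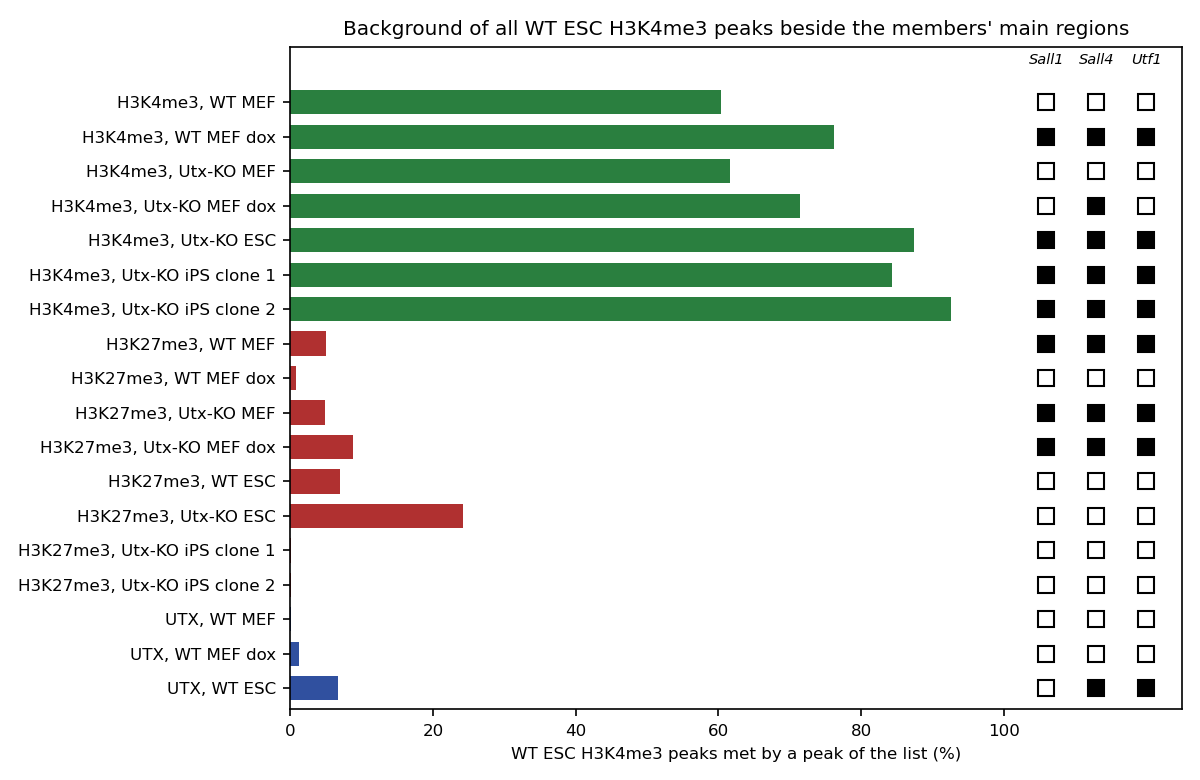
Percent of the 19468 WT ESC H3K4me3 peaks met by a peak of each other list (bars, green H3K4me3, red H3K27me3, blue UTX), with a filled square where the main region of Sall1, Sall4 or Utf1 has a peak of that list and an open one where it has none. All 3 genes have H3K27me3 in Utx-KO MEF with dox, where 8.74% of all WT ESC H3K4me3 peaks do, and none has it in Utx-KO ESC, where 24.2% do.

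ES cells differed from the fibroblasts in that neither genotype had H3K27me3 at these genes. This held in Utx-KO ESC although its list was the longest of all, with 36231 H3K27me3 peaks, and met 24.2% of WT ESC H3K4me3 peaks. The nearest H3K27me3 peaks of Utx-KO ESC lay 67.2 kb from the Sall1 region, 40.3 kb from Sall4 and 12.6 kb from Utf1. Of the H3K27me3 regions of Utx-KO MEF with dox and Utx-KO ESC together, 2.45% were in the dox list only (1.15% at a score of at least 100), and all 3 members had such regions. Of the H3K27me3 peaks of Utx-KO MEF with dox, 79.1% met a peak of Utx-KO ESC, as did 94.1% of those scoring 300 or more. The 4 member peaks in that class, 2 of them side by side at Sall1, were among the few that did not. As the level of 300 was chosen with their scores known, their place in the class is no result. The WT ESC list met 31.3% of these peaks and 68.3% of those scoring 300 or more, and 7.01% of WT ESC H3K4me3 peaks. Wide H3K4me3 peaks of WT ESC, of 4000 bp or more, also met H3K27me3 of Utx-KO ESC less often, at 6.45% of 1752, and all 3 member peaks are that wide. The cut of 4000 bp was not among the planned measures and lies just below the narrowest member peak, 4173 bp at Utf1. That all 3 pass it is therefore no result. Of the same 1752 peaks, 4.68% met H3K27me3 of Utx-KO MEF with dox, as the members did. Of the 92 that were also gained with dox in WT MEF, 52.2% had no H3K4me3 in Utx-KO MEF with dox.

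H3K4me3 was present at all 3 members in both ES cell genotypes, as at 76.2% of the 21938 regions of the 2 lists, and its peak was shorter in Utx-KO ESC at each. The difference in covered length, Utx-KO ESC minus WT ESC, was -1480 bp at Sall1, -854 bp at Sall4 and -1055 bp at Utf1. Median peak widths of the lists were 1897 bp in Utx-KO ESC and 2099 bp in WT ESC, so the lists as a whole moved the same way. The share of regions in both lists with a shorter peak in Utx-KO ESC was not computed, so how common this was is not known. At Sall1 the lower edges differed by 11 bp, while the Utx-KO peak ended 1491 bp before the WT peak at the upper side. Within 5000 bp around the Sall4 region Utx-KO ESC had more H3K4me3 than WT ESC, by 583 bp, through a separate peak at chr2:168582885-168584321.

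Both aberrant iPS clones, although Utx-KO and derived from fibroblasts, carried H3K4me3 over lengths near those of WT ESC. Clone 1 covered 86.1% of the WT ESC peak at Sall1, 87.2% at Sall4 and 92.3% at Utf1, and clone 2 covered 95.8%, 95.6% and 99.8%. Of all WT ESC H3K4me3 peaks, 87.4% met H3K4me3 of Utx-KO ESC, 84.4% that of clone 1 and 92.6% that of clone 2, and 79.8% had H3K4me3 in Utx-KO ESC and both clones. Neither clone had H3K27me3 in any window. Their H3K27me3 lists held only 135 and 737 peaks and met 0.0514% and 0.108% of WT ESC H3K4me3 peaks, so a loss of the mark was not detectable at these genes.

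**Figure D4:**
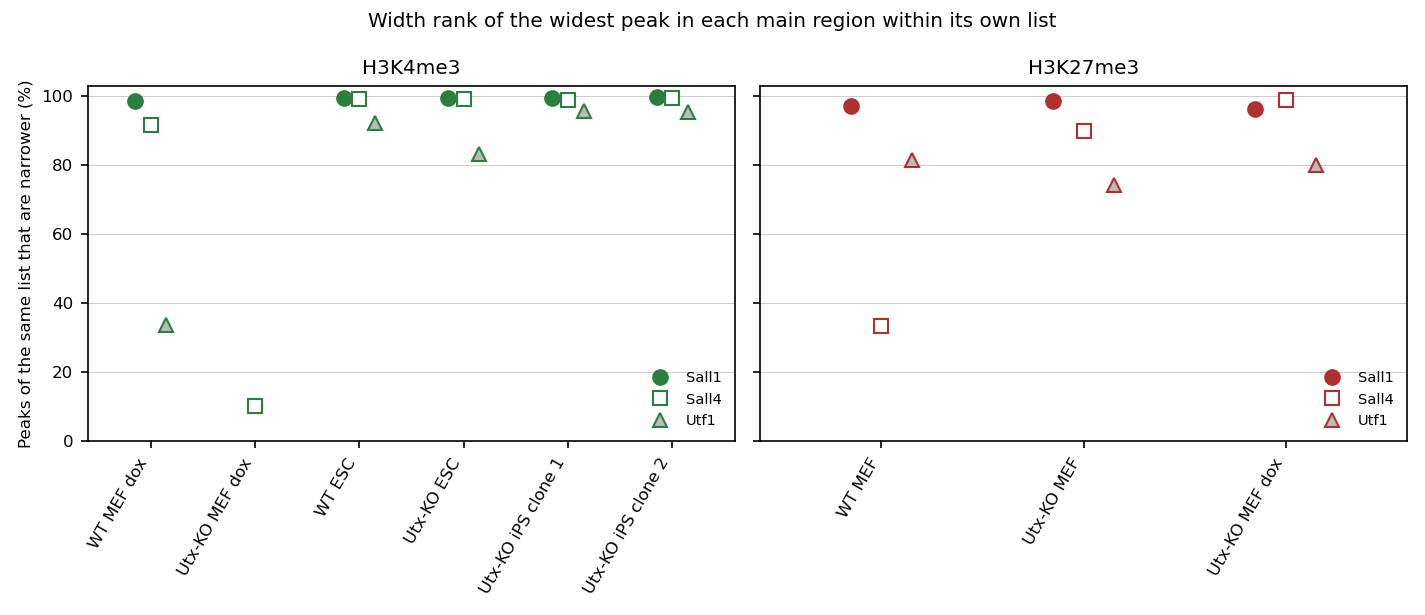
Width rank of the widest peak in each main region, as the percent of peaks in the same list that are narrower (vertical axis), for H3K4me3 (left) and H3K27me3 (right) in each library with a peak there. Sall1 (filled circles) stays above 96% in every list that has it, while Utf1 (grey triangles) in WT MEF with dox exceeds 33.7% and Sall4 (open squares) in Utx-KO MEF with dox 10.2%.

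UTX peaks were found at Sall4 and Utf1 in WT ESC only, and none was found at Sall1. Sall4 had 2, at chr2:168586650-168587244 (score 51.1) and chr2:168589930-168590674 (63.6), weak peaks above 2.03% and 32.7% of their list. Utf1 had a stronger one at chr7:147131257-147132107 (score 116, above 81.6%), close to the middle of the ESC H3K4me3 peak, with its midpoint 2.27 kb from the lower and 1.90 kb from the upper edge. All lay inside H3K4me3 peaks of the same cells, as 26.1% of the 5076 UTX peaks met one. UTX met 6.63% of WT ESC H3K4me3 peaks and 17.1% of those at least 4000 bp wide. Among the 3110 gained with dox in WT MEF it met 6.72%.

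At Sall1 the nearest UTX peak of WT ESC was 12.6 kb outside the main region and beyond the window. WT MEF with dox had 3540 UTX peaks, and the nearest lay 297.9 kb from Sall1, 195.4 kb from Sall4 and 89.0 kb from Utf1. In untreated WT MEF, with 372 UTX peaks, the distances were 1057.8, 461.1 and 611.0 kb. A deposited UTX peak was thus found at Sall4 and Utf1 in ESC and not at Sall1, and in fibroblasts at no member. At a score of at least 100 the Sall4 peaks are lost and that of Utf1 is kept, and among the 372 highest-scoring peaks of the ESC list neither gene has one. UTX of WT MEF with dox met 1.14% of WT ESC H3K4me3 peaks and 0.707% of the gained ones, and UTX of untreated WT MEF met 0.108%, so its lack at the members is the common outcome.

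Some smaller sites in the Sall1 window repeated parts of the pattern and others did not. At the lower side of the Sall1 window WT MEF had H3K27me3 at chr8:91550090-91550873 (score 142). WT MEF with dox had H3K4me3 at chr8:91548958-91550470 (129), and Utx-KO MEF with dox had H3K27me3 at chr8:91548794-91550329 (84.8). WT ESC, Utx-KO ESC and both clones had H3K4me3 there, with scores of 243, 217, 268 and 358. Untreated Utx-KO MEF had no H3K27me3 peak at this site, unlike at the Sall1 main region, and in the other states the marks were those of the main region. Next to it, at chr8:91551991-91553196, WT ESC and both clones had H3K4me3 and Utx-KO MEF with dox had H3K27me3 (91.8).

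A few H3K4me3 peaks were listed in Utx-KO ESC or the aberrant iPS clones and not in WT ESC. In the Sall1 window one lay at chr8:91556118-91557433 in Utx-KO ESC (score 105) and at overlapping positions in clone 1 (128) and clone 2 (145). Below the Sall4 main region, clone 2 had a 4.93 kb peak (score 440) over that of Utx-KO ESC (78.0). In the Utf1 window both clones had a peak near chr7:147126763-147127432 (118 in clone 1 and 55.0 in clone 2). Clone 2 had 1 more inside the Sall4 main region, at chr2:168584840-168585981 (162), and 1 across the lower edge of the Utf1 window, at chr7:147123768-147124695 (109). The clone 2 peaks at Sall4 stood above 47.2% and 32.1% of their list by score. All the others were in the lower 30.0% of theirs.

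The Utf1 window also cut through a region that is not part of this pattern. At chr7:147134979-147138360, across the upper edge of the window, all 8 H3K4me3 lists had a peak, with scores from 236 in Utx-KO ESC to 2005 in Utx-KO MEF with dox. WT ESC had a UTX peak at its edge (59.1). The next gene on that side in the GRCm38 order is the long noncoding RNA Gm16201, and the region was not assigned to it. Counted by the window, H3K4me3 was therefore present at Utf1 in every list, and values for Utf1 above are those of the main region. The presence of this peak in Utx-KO MEF with dox shows that the list had H3K4me3 0.7 kb from the Utf1 main region.

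Many other regions had H3K4me3 in the same lists as a member. Of 33646 merged H3K4me3 regions, 651 (1.93%) were present in the same 5 of 8 lists as Sall1 and Utf1, and 236 of these (36.3%) met H3K27me3 of Utx-KO MEF with dox. The 6 lists of Sall4 were shared by 1010 regions (3.00%), of which 524 (51.9%) met it. Requiring for a WT ESC H3K4me3 peak no H3K4me3 in either untreated fibroblast, H3K4me3 with dox in WT and not in Utx-KO cells, and H3K27me3 in Utx-KO MEF with dox left 305 of 19468. Adding H3K27me3 in both untreated fibroblasts left 124. Adding its absence from both ES cell lists left 15, with Sall1 and Utf1 among them. These conditions were read off the members, so the counts describe how common the pattern is and support nothing about them.

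Regions most like the members were those with the smallest Euclidean distance over the 8 H3K4me3 lists of log2(covered bp + 100). Utf1 had the closest one, chr8:80957963-80962563 at a distance of 0.43, which had H3K27me3 in 5 lists, both ES cell lists included. For Sall4 it was chr4:128896387-128906517 (0.97) and for Sall1 chr17:35641044-35648065 (1.37). These last regions had UTX in WT ESC and no H3K27me3 in any list. Of the 9 regions, 3 for each member, 4 had H3K27me3 in both untreated fibroblasts and in Utx-KO MEF with dox, as the members do, 4 had none in any list and 1 had it in Utx-KO MEF with dox and Utx-KO ESC. Of the 4 with the fibroblast pattern, 1 had no H3K27me3 in either ESC list. It was the second region for Sall4, chr1:138841078-138850684 (1.17), which also had UTX in WT ESC, as Sall4 did. The third regions were chr11:33098736-33105015 (1.43) for Sall1, chr15:85857833-85865938 (1.27) for Sall4 and chr8:12394163-12398540 (0.59) for Utf1.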

How the data were processed

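ChIP-seq peak lists of 19 immunoprecipitated samples were analysed (8 H3K4me3, 8 H3K27me3, 3 UTX), while 8 whole-cell extracts are not analysed here. Per the submitters' processing notes, the tools were MACS 1.4.1, Bowtie 0.12.5 and CASAVA 1.8.2 and the build was mm9, with roles and settings not given in the sources used here. Each deposited list gave peak positions and a score, which by its form is the peak caller's minus 10 times log10 p and was at least 50.0. Scores were used to rank peaks within a list and, at 100 and 300, as minimum levels; these levels need not mean the same in lists of unequal depth. Read depth is unknown. Lists held 16157 to 28232 (H3K4me3), 135 to 36231 (H3K27me3) and 372 to 5076 (UTX) peaks. H3K27me3 lists were far more unequal than H3K4me3 lists, which limits what an absent peak shows.

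All autosomal, X and Y peaks entered, which left out 1 peak. Overlap meant at least 1 bp, and positions are 1-based mm9. Background regions were merged from the 2 lists compared. No test was run, since states had 1 library per mark. The members and lists were chosen with earlier results of these data known. The naming rule took the members, every peak in their windows and the 3 regions most like each outside chromosome 18, of which a selection is printed. Genes of the wider pluripotency list, Sall2 and Sall3 included, were not analysed here for want of an mm9 annotation. For 10 of 10 pairs of simulated peak lists, the overlap counts, merged regions and covered length equalled those of an independent calculation. Python 3.11.15, numpy 2.4.6, matplotlib 3.10.9 and bedtools 2.31.1 were used.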

Additional observations from a re-analysis of the deposited data

Results flagged for a closer look

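H3K27me3 moved in opposite directions with dox in the 2 fibroblast genotypes at all 3 members, each value from single libraries, and the difference was not tested. In the Sall1 main region the covered length fell by 3736 bp in WT MEF and rose by 3086 bp in Utx-KO MEF, a difference of 6822 bp between the genotypes. At Sall4 it fell by 1555 bp and rose by 2836 bp, a difference of 4391 bp. At Utf1 it fell by 1151 bp and rose by 685 bp, a difference of 1836 bp, but the Utf1 rise was 21 bp when 5000 bp on each side were included, so the opposite movement there rests on the bounds of the main region. The share of all regions that fell in WT MEF and rose in Utx-KO MEF was not computed. Of 5476 H3K27me3 regions in WT MEF with or without dox, 83.0% were found only without dox, so the fall is the common outcome. The fall in WT MEF is to 0 in the list with 938 peaks, and the part of that list's length in the result was not tested. The rise in Utx-KO MEF is between lists whose median H3K27me3 width was 651 bp without dox and 1027 bp with it. The share of their peaks scoring 100 or more was 91.8% without dox and 40.6% with it. The part of these list-wide differences in the rise was not tested.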

How the results depend on the processing

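At a score of at least 100 all 15 differences in covered length over the main regions kept their direction and stayed within 1.5 times. Widening the regions by 5000 bp turned 1 of the 15, Utx-KO ESC minus WT ESC H3K4me3 at Sall4 (583 bp), and moved 5. These were that difference at Utf1 (-2264 bp), H3K4me3 of WT MEF dox minus Utx-KO MEF dox at Utf1 (1151 bp), H3K27me3 of Utx-KO MEF minus WT MEF at Sall1 (300 bp) and Utf1 (877 bp), and Utx-KO MEF dox minus Utx-KO MEF at Utf1 (21 bp), where the wider stretch takes in peaks beside the main region.

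By window, H3K4me3 was at 1 member in WT MEF, 1 in Utx-KO MEF and 2 in Utx-KO MEF dox. By peak midpoint, or by main region (added after the data were seen), these were 0, 0 and 1. A score of at least 100 left 1 member in Utx-KO MEF dox, and 1 with UTX in WT ESC (Utf1, with Sall4 lost). Widened windows gave 2 in Utx-KO MEF. With equal peak numbers (135 for H3K27me3, 372 for UTX), 1 member kept H3K27me3 in WT MEF, Utx-KO MEF and Utx-KO MEF dox each, and 0 kept UTX in WT ESC. Leaving out either iPS clone gave 3 members with H3K4me3 and 0 with H3K27me3. No paired analysis was possible because no result came from a test and the states compared have 1 library each.

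Background shares at a score of at least 100 were 30.6% for H3K4me3 in WT MEF dox only against WT MEF, 16.3% against Utx-KO MEF dox, and 98.8% for H3K27me3 in Utx-KO MEF dox only against WT MEF dox. WT ESC H3K4me3 peaks met by H3K27me3 of Utx-KO MEF dox came to 5.33% at that score and 8.23% with 50% overlap, and those met by UTX to 2.10% and 5.42%. At the same score other printed shares also moved by over 1.5 times: H3K27me3 in Utx-KO MEF dox only against Utx-KO ESC (1.15%), and WT ESC H3K4me3 peaks met by H3K27me3 of WT ESC (2.33%) and WT MEF dox (0.0129%), by UTX of WT MEF dox (0.0129%) and WT MEF (0), and by H3K27me3 of iPS clone 1 (0). With 50% overlap, those met by H3K27me3 of WT ESC came to 4.43%, of iPS clone 1 to 0.0308% and of clone 2 to 0.0411%.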
